A study of Danio rerio with 9 samples.

Results

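The transcripts described here are those of 10 germ plasm and germ cell genes of the zebrafish: *ddx4*, *nanos3*, *dnd1*, *dazl*, *tdrd7a*, *piwil1*, *ca15b*, *buc*, *tdrd6* and *celf1*. They were chosen by name as maternally loaded genes of the germ plasm, with earlier results of these data known. Each matched a single Ensembl identifier among the 32055 genes counted, and all 10 were among the 16962 genes with enough counts to be tested. Their RNA was measured by RNA sequencing of whole embryos in 3 groups of 3 libraries each, 9 in all. Affected and unaffected MZ*mondoa* embryos were maternal-zygotic mutants, homozygous for a frameshift allele of *mondoa* (*ka405*, made with CRISPR/Cas9) and born to homozygous parents, so both the maternal and the embryonic copies of this gene for a glucose-sensing transcription factor were defective. The mutants were sorted by eye into affected embryos, whose epiboly (the movement by which the blastoderm comes to cover the yolk cell) was severely disturbed, and unaffected embryos, whose epiboly looked normal, and wild-type embryos with normal epiboly served as controls. No treatment was given. A single allele was used, and the mutants had mutant mothers whereas the controls had wild-type mothers, so the genotype cannot be told apart from the parental line. The labels give an age of 5 hours post fertilization for all groups, whereas the methods of the study place collection late in the epiboly of the controls, and this was not resolved.

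Germ plasm is a store of RNA and protein that is laid down in the oocyte and inherited by the few cells that become the primordial germ cells, the precursors of eggs and sperm. In the zebrafish, many of these RNAs are also present at a lower level throughout the early embryo, where they are degraded after the embryo's own genome becomes active, while the germ cells protect and translate them. The level in a whole embryo therefore holds maternal RNA that has not yet been cleared from the body, RNA kept in germ cells and any new transcription. In bulk RNA, fewer cells of a type and less RNA per cell cannot be told apart, and at a single stage neither can deposition in the egg, decay and transcription.

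The exonic counts of a library summed to between 27567897 and 39299268. Levels are given as CPM, a gene's counts relative to the library's total count, scaled between libraries by TMM. CPM is not corrected for gene length, so levels are compared between groups. Sums of CPM over a list, and ratios of counts between genes, depend in part on gene length. The targeted gene (*mlxip* in Ensembl) was at 15.02, 16.1 and 12.8 CPM in the affected, 21.01, 20.8 and 13.0 CPM in the unaffected and 111, 113 and 51.9 CPM in the wild-type libraries of replicates 1 to 3. All mutant libraries thus lay below all wild-type libraries, and replicate 3 was the lowest of each group. Libraries are listed in this order of replicate numbers throughout. Where groups are said not to overlap, the share of all genes without overlap was not counted. Counts were compared by edgeR's quasi-likelihood test with Benjamini-Hochberg adjustment over all genes tested, and a gene was called when its adjusted p was under 0.05. Nothing states that the 3 libraries of a group came from separate clutches, so the p-values measure only the spread between these libraries.

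Between affected and wild-type embryos the germ plasm genes moved in opposite directions. *ddx4*, *buc* and *dazl* rose in affected embryos, and *tdrd7a*, *nanos3*, *dnd1* and *piwil1* fell, so that 7 of the 10 genes were called, 3 higher and 4 lower. Over all genes tested, 15.4% were called higher and 15.0% lower in this comparison. The 10 genes were chosen with earlier results of these data known, so nothing is drawn from their share of calls against these shares. The log2 fold changes of the 10 genes ran from -1.47 for *tdrd7a* to 1.17 for *buc*, with a median of -0.28, against a median of -0.02 over all genes. *ca15b*, *tdrd6* and *celf1* did not pass the test. The mean of the unaffected embryos lay between those of the other groups for *ddx4*, *buc* and *dazl*, whereas for *tdrd7a*, *nanos3* and *dnd1* the mutant groups were close to each other and below wild-type.

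**Figure D1:**
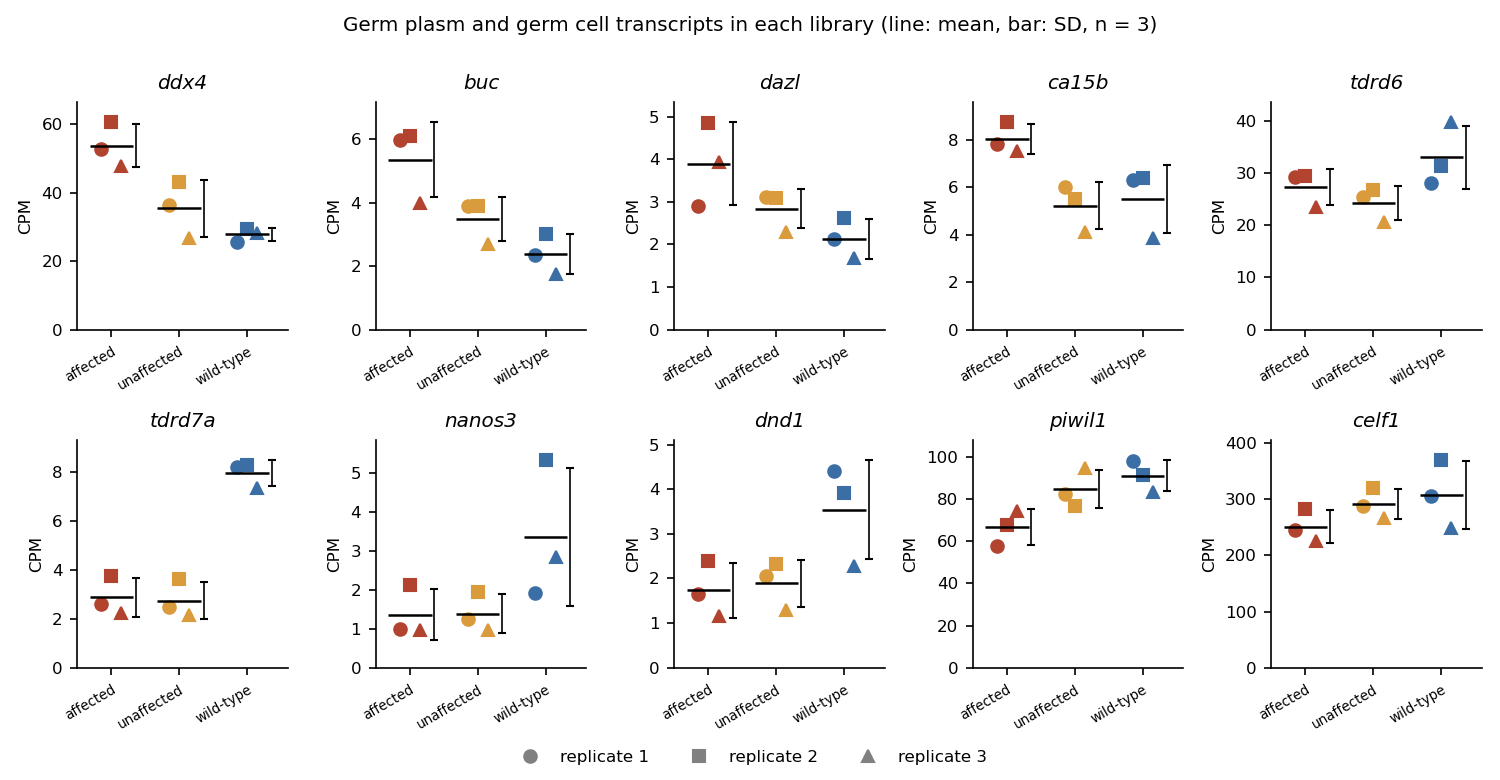
Level of each gene in CPM (vertical axes, from 0) in the 3 libraries of affected MZ*mondoa*, unaffected MZ*mondoa* and wild-type embryos, with the replicate number as the symbol, the group mean as a line and the SD as a bar. *ddx4* was at 47.8 to 60.5 CPM in affected, 26.7 to 43.2 CPM in unaffected and 25.6 to 29.4 CPM in wild-type libraries, while *tdrd7a* was at 2.15 to 3.77 CPM in the mutants and 7.37 to 8.32 CPM in wild-type.

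Among the genes that organize the germ plasm, *buc* (ENSDARG00000096095) encodes Bucky ball, the protein that builds the Balbiani body of the oocyte and gathers germ plasm in the embryo. It was at 5.96, 6.09 and 3.98 CPM in affected, 3.88, 3.90 and 2.68 CPM in unaffected and 2.34, 3.02 and 1.75 CPM in wild-type libraries. The affected libraries did not overlap with either other group, and unaffected and wild-type libraries overlapped only through unaffected replicate 3 and wild-type replicate 2. The mean was 5.34 ± 1.18 CPM in affected, 3.49 ± 0.697 CPM in unaffected and 2.37 ± 0.636 CPM in wild-type embryos (SD, n = 3 each). Affected embryos exceeded wild-type by 1.17 on the log2 scale (SE 0.26, 95% interval 0.60 to 1.75, edgeR adjusted p = 0.00748). This was the largest rise among the 10 genes.

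*tdrd6* (ENSDARG00000070052), which encodes a protein with several Tudor domains that associates with Bucky ball granules, was at 29.3, 29.4 and 23.4 CPM in affected, 25.3, 26.7 and 20.6 CPM in unaffected and 27.997, 31.4 and 39.7 CPM in wild-type libraries. Affected and wild-type libraries overlapped, and all unaffected libraries were below all wild-type libraries. The log2 difference was -0.27 between affected and wild-type (95% interval -0.62 to 0.07, edgeR adjusted p = 0.215) and -0.45 between unaffected and wild-type (95% interval -0.79 to -0.10, edgeR adjusted p = 0.102). Neither passed the test after adjustment. *tdrd6* was the only one of the 10 genes for which replicate 3 was the highest of the wild-type libraries.

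*tdrd7a* (ENSDARG00000032808) encodes another Tudor protein, which shapes the germ granules of primordial germ cells. It was at 2.62, 3.77 and 2.26 CPM in affected, 2.48, 3.62 and 2.15 CPM in unaffected and 8.21, 8.32 and 7.37 CPM in wild-type libraries. The mutant libraries held 68 to 112 counts of the gene and the wild-type libraries 267 to 290. Every mutant library was far below every wild-type library, and the mutant groups overlapped each other almost completely. Affected embryos were lower than wild-type by a log2 fold change of -1.47 (SE 0.24, 95% interval -1.995 to -0.94, edgeR adjusted p = 0.00170), and unaffected embryos by -1.54 (SE 0.24, 95% interval -2.07 to -1.004, edgeR adjusted p = 0.00337). Between affected and unaffected embryos the difference was 0.07, with a 95% interval of -0.48 to 0.61 (edgeR adjusted p = 0.921). In the edgeR fit of all 9 libraries without a replicate block, *tdrd7a* was the only one of the 10 genes called in both mutant groups. With the block, *nanos3*, *dnd1* and *buc* were called in unaffected embryos as well. DESeq2 also called *nanos3* there (adjusted p = 0.0411). In edgeR, *ddx4* was called there without unaffected replicate 3 (0.0324) and *dnd1* without wild-type replicate 3 (0.0498).

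*ddx4* (ENSDARG00000014373) encodes Vasa, an RNA helicase of germ granules and the standard marker of the germ line. It was at 52.8, 60.5 and 47.8 CPM in affected, 36.3, 43.2 and 26.7 CPM in unaffected and 25.6, 29.4 and 28.3 CPM in wild-type libraries. The affected libraries were above all others, and 2 unaffected libraries lay above the wild-type range while replicate 3 lay within it. The mean was 53.7 ± 6.39 CPM in affected, 35.4 ± 8.24 CPM in unaffected and 27.8 ± 1.95 CPM in wild-type embryos. Affected embryos were higher than wild-type by 0.95 on the log2 scale (SE 0.16, 95% interval 0.59 to 1.31, edgeR adjusted p = 0.00214). The unaffected embryos differed from wild-type by 0.35 (95% interval -0.01 to 0.71, edgeR adjusted p = 0.212), which did not pass. Without unaffected replicate 3, that difference was 0.52 with an adjusted p of 0.0324.

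*dazl* (ENSDARG00000036214), an RNA-binding protein of germ cells that promotes the translation of its targets, was at 2.89, 4.84 and 3.95 CPM in affected, 3.13, 3.10 and 2.31 CPM in unaffected and 2.12, 2.62 and 1.68 CPM in wild-type libraries. The affected libraries were above the wild-type libraries, and the unaffected libraries overlapped both. The log2 fold change was 0.87 in affected against wild-type embryos (SE 0.25, 95% interval 0.32 to 1.42, edgeR adjusted p = 0.0243) and 0.41 in unaffected against wild-type embryos (edgeR adjusted p = 0.349). This call of affected embryos did not hold without affected replicate 2 (log2 fold change 0.69, adjusted p = 0.0982), affected replicate 3 (0.86, 0.0581), wild-type replicate 1 (0.86, 0.0623) or wild-type replicate 3 (0.72, 0.0659).

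*ca15b* (ENSDARG00000040510), a carbonic anhydrase gene transcribed in primordial germ cells, was at 7.82, 8.75 and 7.55 CPM in affected, 6.03, 5.52 and 4.14 CPM in unaffected and 6.31, 6.40 and 3.86 CPM in wild-type libraries. All affected libraries were above all libraries of the other groups, which overlapped. The log2 difference was 0.54 between affected and wild-type (95% interval 0.07 to 1.02, edgeR adjusted p = 0.0800) and -0.08 between unaffected and wild-type (95% interval -0.56 to 0.40, edgeR adjusted p = 0.864). Neither was called.

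The germ cell survival factors *nanos3* and *dnd1* had low counts. *nanos3* (ENSDARG00000068255) encodes a repressor of translation that germ cells need to persist. It was at 0.999, 2.12 and 0.971 CPM in affected, 1.26, 1.93 and 0.979 CPM in unaffected and 1.91, 5.32 and 2.85 CPM in wild-type libraries, from 29, 63 and 31, from 35, 55 and 31 and from 62, 183 and 112 counts. The groups overlapped, since wild-type replicate 1 was below affected and unaffected replicates 2, and replicate 2 was the highest of each group. The log2 fold change of affected against wild-type embryos was -1.30 (SE 0.44, 95% interval -2.27 to -0.33, edgeR adjusted p = 0.0462), and that of unaffected against wild-type embryos was -1.27 (SE 0.44, edgeR adjusted p = 0.0978). This call of affected embryos did not hold without wild-type replicate 2 (log2 fold change -0.81, adjusted p = 0.176), wild-type replicate 3 (-1.41, 0.0517), affected replicate 1 (-1.12, 0.1499), affected replicate 3 (-1.10, 0.139) or unaffected replicate 1 (-1.30, 0.0643).

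*dnd1* (ENSDARG00000022813) encodes Dead end, an RNA-binding protein that shields germ plasm RNAs, those of *nanos* and *tdrd7* among them, from microRNAs in zebrafish germ cells. It was at 1.65, 2.39 and 1.16 CPM in affected, 2.05, 2.32 and 1.29 CPM in unaffected and 4.3995, 3.93 and 2.29 CPM in wild-type libraries. Replicate 3 was the lowest of each group, and only wild-type replicate 3 lay within the range of the mutants. The means were 1.73 ± 0.618 CPM in affected, 1.89 ± 0.532 CPM in unaffected and 3.54 ± 1.11 CPM in wild-type embryos. The log2 fold change was -1.03 in affected against wild-type embryos (SE 0.34, 95% interval -1.78 to -0.28, edgeR adjusted p = 0.0428) and -0.90 in unaffected against wild-type embryos (SE 0.34, edgeR adjusted p = 0.123). This call of affected embryos did not hold without affected replicate 1 (log2 fold change -0.99, adjusted p = 0.119), affected replicate 3 (-0.80, 0.137), unaffected replicate 1 (-1.02, 0.0605), unaffected replicate 2 (-1.02, 0.0503), wild-type replicate 1 (-0.84, 0.131) or wild-type replicate 2 (-0.94, 0.102). In unaffected embryos a call was gained without wild-type replicate 3 (-1.14, 0.0498).

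*piwil1* (ENSDARG00000041699) encodes Ziwi, the Argonaute protein that carries piRNAs, small RNAs that silence transposons in the germ line. It was at 57.5, 67.9 and 74.5 CPM in affected, 82.6, 76.9 and 94.7 CPM in unaffected and 98.1, 91.4 and 83.4 CPM in wild-type libraries. The affected libraries were below all others, and unaffected and wild-type libraries overlapped. The log2 fold change was -0.45 in affected against wild-type embryos (SE 0.12, 95% interval -0.71 to -0.19, edgeR adjusted p = 0.0176) and -0.10 in unaffected against wild-type embryos (edgeR adjusted p = 0.647). The first of these calls was lost without affected replicate 1 (log2 fold change -0.34, adjusted p = 0.0752), affected replicate 2 (-0.45, 0.0563) or wild-type replicate 1 (-0.39, 0.0609). *piwil1* and *ddx4*, both components of germ granules, thus had opposite signs in affected embryos.

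*celf1* (ENSDARG00000005315) encodes an RNA-binding protein whose maternal RNA is found in germ plasm but which is also expressed in many somatic tissues. It was at 245, 283 and 225 CPM in affected, 288, 320.03 and 267 CPM in unaffected and 306, 369 and 248 CPM in wild-type libraries. The 3 groups overlapped. The log2 difference between affected and wild-type embryos was -0.29 (95% interval -0.62 to 0.03, edgeR adjusted p = 0.155), and it reached -0.43 with an adjusted p of 0.0323 without wild-type replicate 3. Between unaffected and wild-type embryos it was -0.08 (edgeR adjusted p = 0.792).

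**Figure D2:**
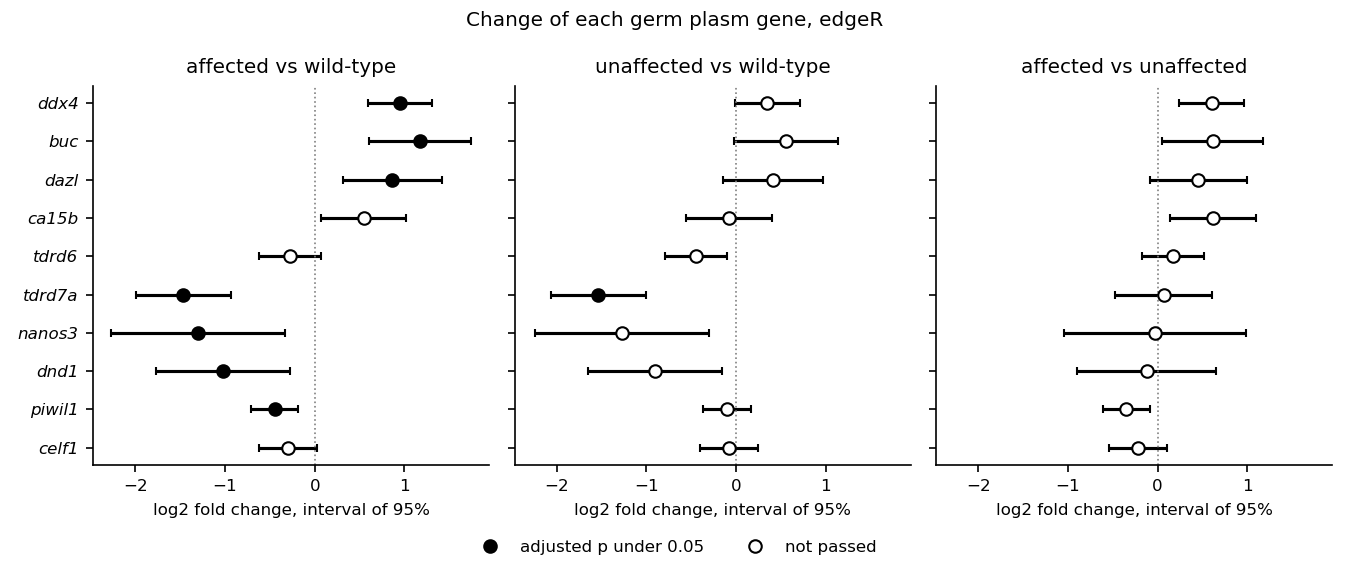
Log2 fold change of each gene with its 95% interval in the 3 comparisons, from edgeR, with filled circles for an adjusted p under 0.05. Filled circles stand for 7 genes between affected and wild-type, for *tdrd7a* alone between unaffected and wild-type and for no gene between affected and unaffected embryos.

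The comparison of unaffected with wild-type embryos shows how the germ plasm genes stood in mutants whose epiboly looked normal. *tdrd7a* fell, and it was the only gene called of the 10, with 0 called higher and 1 lower. Over all genes tested, 4.65% were called higher and 4.95% lower. At an unadjusted p under 0.05 there were 4 genes, and DESeq2 called 2, *tdrd7a* and *nanos3* (adjusted p = 0.0411 for *nanos3*). Among all genes DESeq2 called 2216 of 19355, and the share with an unadjusted p under 0.05 was not counted. The median of the 10 log2 fold changes was -0.09, against -0.01 over all genes. Replicate numbers were taken to pair the libraries of these groups, because same-numbered libraries deviated together from their group means. For replicate 1 the correlation of these deviations was weak (0.123). Unaffected replicate 1 went slightly more with wild-type replicate 2 (0.134). The pairing is therefore uncertain, and so are the calls that rest on it. With the number as a block in edgeR, 4 of the 10 genes were called, *tdrd7a*, *nanos3* (log2 fold change -1.22, adjusted p = 0.00860), *dnd1* (-0.90, 0.0149) and, on the higher side, *buc* (0.56, 0.0395). In that fit 8.03% of all genes were called higher and 8.23% lower.

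Affected and unaffected embryos share the genotype and differ in epiboly. By their sample numbers, the affected libraries were registered apart from those of the other groups. Whether all groups were prepared and sequenced together is not known here, and such a difference could not be told apart from that in epiboly. Their comparison called 0 of the 10 genes with edgeR, 4 had an unadjusted p under 0.05, and DESeq2 called *ddx4* alone (adjusted p = 0.0172). Over all genes tested, edgeR called 1.88% higher and 1.11% lower, and DESeq2 called 1206 of 15903 genes. How many of all genes had an unadjusted p under 0.05 was not counted. The affected libraries were above all unaffected libraries for *ddx4* (log2 difference 0.60, 95% interval 0.24 to 0.96, edgeR adjusted p = 0.0756), for *ca15b* (0.62, 0.142 to 1.1003, edgeR adjusted p = 0.158) and for *buc* (0.62, 0.05 to 1.18, edgeR adjusted p = 0.236). They were below all unaffected libraries for *piwil1* (-0.35, -0.61 to -0.08, edgeR adjusted p = 0.152). How many of all genes were separated in this way was not counted, so nothing is drawn from the separation. The replicate numbers were taken to pair these libraries too, which is likewise uncertain. With the block, 3 genes were called higher in affected embryos, *ddx4* (0.61, adjusted p = 0.0150), *ca15b* (0.64, 0.0391) and *buc* (0.61, 0.0406), where 4.88% of all genes were called higher and 3.37% lower. Without unaffected replicate 2 and with no block, *ddx4* was called (0.77, edgeR adjusted p = 0.0368). A difference between the mutant groups was not detected for *tdrd7a*, *nanos3* or *dnd1* with these libraries. The 95% intervals were wide for *nanos3* (-1.04 to 0.99) and *dnd1* (-0.89 to 0.65). Each comparison of 2 groups shares libraries with the others.

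Within a library, the ratio of the counts of 2 genes does not depend on its depth or scaling. The ratios were added after the data had been seen and are given as a description. They restate the differences in level of the genes given above. How many pairs of all genes are separated in this way was not counted, so nothing is drawn from the separation of groups in a ratio. For each count of *tdrd7a* there were 20.2, 16.1 and 21.2 counts of *ddx4* in affected, 14.6, 11.9 and 12.5 in unaffected and 3.12, 3.54 and 3.83 in wild-type libraries. The 3 groups were fully separated in this ratio, in the order affected, unaffected and wild-type. For each count of *dnd1* there were 31.9, 25.3 and 41.3 counts of *ddx4* in affected, 17.7, 18.6 and 20.7 in unaffected and 5.83, 7.50 and 12.4 in wild-type libraries, again without overlap between any groups. For each count of *nanos3* there were 52.8, 28.6 and 49.3 counts of *ddx4* in affected, 28.9, 22.3 and 27.3 in unaffected and 13.4, 5.53 and 9.93 in wild-type libraries. Both mutant groups were above wild-type in this ratio, and they overlapped each other because affected replicate 2 was just below unaffected replicate 1. The ratio of *ddx4* to *celf1* was nearly constant within the affected group, at 0.216, 0.214 and 0.212, against 0.126, 0.135 and 0.10 in the unaffected and 0.0838, 0.0797 and 0.114 in the wild-type libraries. For *ddx4* per *buc*, in contrast, the groups overlapped, with 8.86, 9.94 and 12.02 in affected, 9.35, 11.1 and 9.96 in unaffected and 11.0, 9.73 and 16.1 in wild-type libraries.

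**Figure D3:**
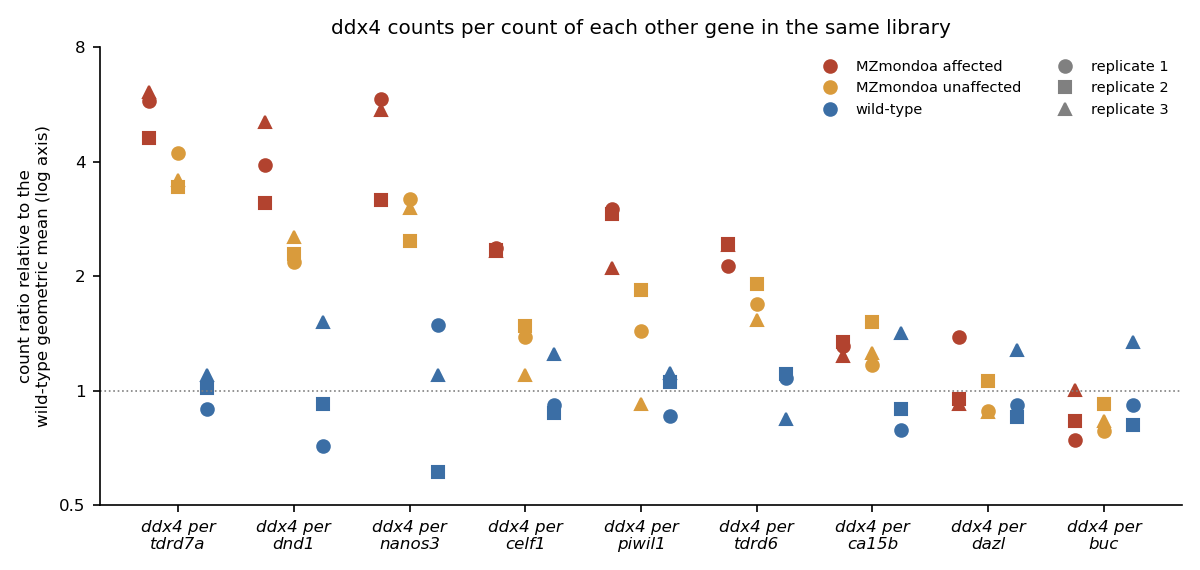
Counts of *ddx4* per count of each other gene in the same library, relative to the geometric mean of the 3 wild-type libraries (vertical axis, logarithmic), with colours for groups and symbols for replicate numbers. The affected libraries were above the wild-type libraries for *tdrd7a*, *dnd1*, *nanos3*, *celf1*, *piwil1* and *tdrd6*, and the groups overlapped for *ca15b*, *dazl* and *buc*. The share of all gene pairs separated in this way was not counted.

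The germ plasm genes also varied with the replicate number inside the groups. Replicate 3 held the lowest level of the group for 8 of the 10 genes in affected, 9 in unaffected and 7 in wild-type embryos, where 36.0%, 37.1% and 34.0% of all tested genes were lowest in that library. Replicate 2 held the highest level for 9 genes in affected, 7 in unaffected and 7 in wild-type embryos, against 33.7%, 32.1% and 30.8% of all genes. *nanos3* spanned the widest range, with deviations in log2 CPM from the group mean of 0.74, 0.53 and 0.79 in replicate 2 of affected, unaffected and wild-type embryos. *piwil1* ran the other way in the mutants, with its highest level in replicate 3 of both groups. What the replicate number stands for is not stated. Replicate 3 was left out of every group in an alternative added after the data had been seen. In that edgeR fit 6 genes were called between affected and wild-type embryos. The calls of *nanos3* and *dazl* were lost (edgeR adjusted p of 0.104 and 0.0905) and that of *celf1* was gained (0.0456). Between unaffected and wild-type embryos 3 genes were called, *tdrd7a*, *ddx4* (0.0314) and *dnd1* (0.0451). Over all 16945 genes of that fit, 5364 and 2174 were called in these comparisons. With all libraries these were 5144 and 1628 of 16962.

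**Figure D4:**
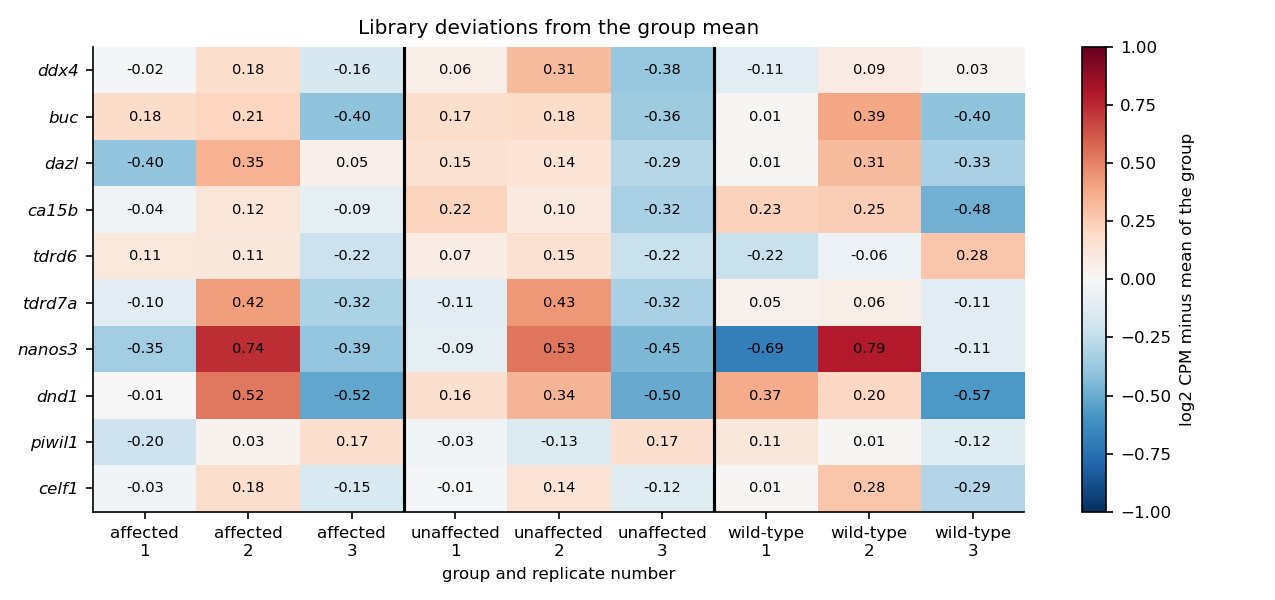
Deviation of log2 CPM in each library from the mean of its group (colour and printed value), for the 10 genes in the 9 libraries ordered by group and replicate number. Replicate 2 was above its group mean for *nanos3* by 0.74, 0.53 and 0.79 in affected, unaffected and wild-type embryos, and replicate 3 was mostly below.

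The genes whose profiles over the 9 libraries were most like those of the main markers were looked for among 14113 tested genes with a plain symbol, by the root mean square difference of log2 CPM after centring each gene. For *ddx4* these were *slc25a33* (0.0670), a mitochondrial nucleotide carrier, *rab3da* (0.0823), a small GTPase of secretory vesicles, and *bora* (0.0924), an activator of Aurora A kinase. *slc25a33* averaged 75.9 CPM in affected, 50.1 CPM in unaffected and 37.6 CPM in wild-type embryos. The nearest profiles to *dnd1* were less close, *armc5* (0.213), *mri1* (0.216) and *lims1* (0.227), and those to *nanos3* less again, *acot9* (0.314), *u3* (0.321) and *gabrr2* (0.346). A library held 37 to 143 counts of *dnd1* and 29 to 183 of *nanos3*, against 833 to 1799 of *ddx4*. The part of count noise in these distances was not tested. None of these nearest genes was among the 10. Only the first few of 14113 genes were kept for each marker, so nothing is drawn from this about the 10 genes.

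Related genes, from lists written by hand, were counted in the same fits. Their counts stand beside the shares of all genes tested. Some listed names were matched without a final a or b, and identifiers that then share a symbol can be separate genes. Between affected and wild-type embryos 15.4% of all genes were called higher and 15.0% lower. Between unaffected and wild-type embryos the shares were 4.65% and 4.95%, and between affected and unaffected embryos 1.88% and 1.11%. No share over all genes was counted for an unadjusted p under 0.05. Of the genes of the piRNA pathway and the nuage (the granules around germ cell nuclei), 13 of 14 identifiers were tested, and 2 were called higher and 0 lower between affected and wild-type embryos. These were *gpat2*, which is needed for piRNA production in the mouse, at 11.6 ± 1.77 CPM in affected and 2.73 ± 0.882 CPM in wild-type embryos (log2 fold change 2.08, edgeR adjusted p = 0.000795), and *tdrd9*, an RNA helicase of the pathway (0.91, 0.00381). *gpat2* was also higher in unaffected than in wild-type embryos (8.003 ± 2.61 CPM in unaffected embryos, log2 fold change 1.54, edgeR adjusted p = 0.00905), the only call of this list there. Between affected and unaffected embryos 0 of the 13 were called, and 0 had an unadjusted p under 0.05.

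Of the other germ plasm and germ cell genes, 29 of 31 identifiers were tested, and 4 were called higher and 4 lower between affected and wild-type embryos. The largest rises were those of *tdrd6b*, a paralogue of *tdrd6* (log2 fold change 1.42, edgeR adjusted p = 0.00404), and *grip2* (ENSDARG00000087187), whose RNA is localized in the germ plasm (34.6 ± 6.62 CPM in affected and 13.7 ± 3.24 CPM in wild-type embryos, 1.34, edgeR adjusted p = 0.00119). Lower levels were found for *nanos1*, a relative of *nanos3* with at most 65 counts in a library (-1.22, edgeR adjusted p = 0.0200), and for *celf3* (ENSDARG00000006983), a relative of *celf1* (-1.41, edgeR adjusted p = 0.0419). This *celf3* identifier was lower in unaffected embryos as well (-1.91, edgeR adjusted p = 0.0355). It had at most 18 counts in an affected library and at most 11 in an unaffected library. The other identifier of that symbol (ENSDARG00000034668) was also called lower in affected embryos (-1.02, edgeR adjusted p = 0.0165). In unaffected embryos that other identifier was not called (-0.44, edgeR adjusted p = 0.332). Only in unaffected embryos was a fall called for *macf1a*, a cytoskeletal linker that positions the Balbiani body in the oocyte (-0.45, edgeR adjusted p = 0.0241). Its difference between affected and wild-type embryos was -0.09 (edgeR adjusted p = 0.538). The kinesin gene *kif5b* (ENSDARG00000103394), of a family that moves germ plasm granules, was lower in affected than in unaffected embryos (-0.60, edgeR adjusted p = 0.0495). This *kif5b* identifier averaged 11.0 CPM in affected, 16.6 CPM in unaffected and 17.2 CPM in wild-type embryos. It was also called lower in affected than in wild-type embryos (-0.64, edgeR adjusted p = 0.00678). The other *kif5b* identifier (ENSDARG00000074131) averaged 208 CPM in affected and 229 CPM in unaffected embryos. It was not called between these groups (-0.14, edgeR adjusted p = 0.342). The calls of *celf3* (ENSDARG00000006983) against wild-type and of *kif5b* between affected and unaffected embryos were each lost under 8 or more alternatives. Those of *gpat2*, *tdrd9*, *tdrd6b* and *grip2* were lost under none of 17.

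Of the transcripts of the oocyte outside the germ plasm, 22 of 24 identifiers were tested, and 11 were called higher, 0 lower and 11 not called between affected and wild-type embryos, with 5 of the 22 below 0 and a median log2 fold change of 0.51. The called genes included *npm2a*, a maternal histone chaperone (1.34, edgeR adjusted p = 0.00387), and *sybu*, which acts in the axis formation of the egg (1.36, edgeR adjusted p = 0.00891). Most of the summed level of the list and of its differences between groups came from *ccnb1* and *cdc20*, which act in the cell cycle of all dividing cells. *ccnb1* was at 436 ± 31.4 CPM in affected, 388 ± 33.9 CPM in unaffected and 318 ± 5.15 CPM in wild-type embryos. *cdc20* was at 182 ± 16.2, 163 ± 17.0 and 140 ± 4.97 CPM in the same groups. With *ccnb1* and *cdc20* included, the sum was 708 to 795 CPM in affected, 608 to 732 CPM in unaffected and 549 to 566 CPM in wild-type libraries. In this sum neither mutant group overlapped with wild-type. edgeR called 0 of the 22 between unaffected and wild-type embryos (5 at an unadjusted p under 0.05, median 0.15) and 0 between affected and unaffected embryos (6 at an unadjusted p under 0.05, median 0.30). The part of this in the levels of *ddx4*, *buc* and *dazl* was not tested. Factors that clear maternal RNA gave 1 higher and 4 lower calls among 29 between affected and wild-type embryos, with *zfp36l1* (ENSDARG00000021443), a decay factor, higher (1.24, edgeR adjusted p = 0.000332), the other identifier of that symbol (ENSDARG00000016154) lower (-0.45, edgeR adjusted p = 0.00428) and *samd4a*, a Smaug-type repressor, lower (-1.69, edgeR adjusted p = 0.000700), followed by *cnot3b*, a subunit of the deadenylase complex (-0.52, edgeR adjusted p = 0.00304). Between unaffected and wild-type embryos *samd4a* (-0.83, edgeR adjusted p = 0.0402) and the decapping enzyme gene *dcp2* (-0.30, edgeR adjusted p = 0.0393) were lower, both calls being lost under 8 or more alternatives. The *zfp36l1* identifier that rose was also higher in affected than in unaffected embryos (0.91, edgeR adjusted p = 0.0147).

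**Figure D5:**
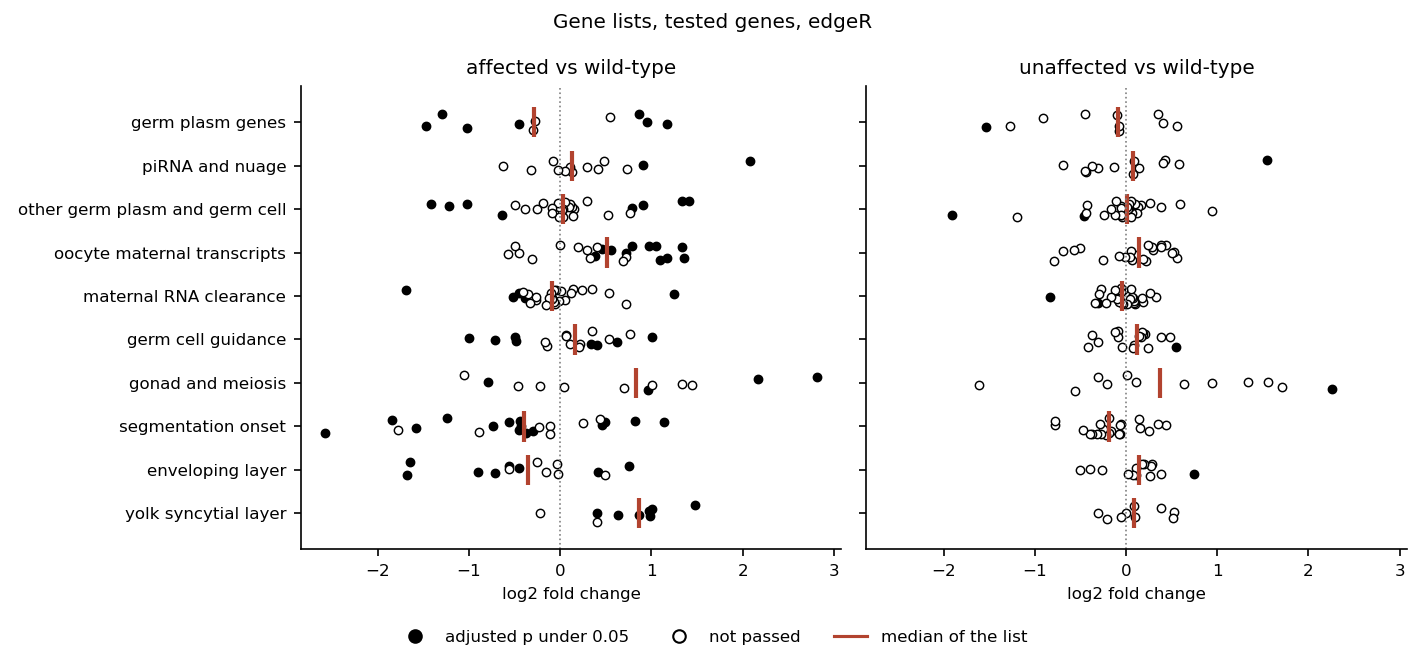
Log2 fold change of each tested gene in the 10 germ plasm genes and the related lists, for affected against wild-type (left) and unaffected against wild-type embryos (right), with filled circles for an edgeR adjusted p under 0.05 and a line at the median of the list. The oocyte transcripts had a median of 0.51 on the left and 0.15 on the right, against -0.28 and -0.09 for the germ plasm genes.

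The lists that follow are given for the state of the whole embryo, and their counts stand beside the 15.4% of all genes called higher and 15.0% called lower in affected against wild-type embryos. Genes of germ cell guidance and motility gave 4 higher and 4 lower calls among 18 between affected and wild-type embryos, led by *snai1a* (1.01, edgeR adjusted p = 0.00196) and *elmo1* (0.63, edgeR adjusted p = 0.00483) on the higher side and by *snai1b* (-0.999, edgeR adjusted p = 0.0200) and *ezr* (-0.71, edgeR adjusted p = 0.0109) on the lower. *elmo1* was also called higher in unaffected than in wild-type embryos (0.55, edgeR adjusted p = 0.0238), and between affected and unaffected embryos *snai1a* was higher (0.80, edgeR adjusted p = 0.0343) and *zeb1* lower (-0.45, edgeR adjusted p = 0.0456). Genes of the gonad and of meiosis summed to 52.1 to 66.3 CPM in affected, 48.9 to 56.3 CPM in unaffected and 40.2 to 44.5 CPM in wild-type libraries, with 12 of 19 identifiers tested, 3 called higher and 1 lower between affected and wild-type embryos, and 2 of 19 listed at 0 in every library. Most of that sum and of its differences came from *meiob*, a meiotic recombination gene, at 37.2 ± 7.58 CPM in affected, 29.7 ± 4.23 CPM in unaffected and 19.1 ± 4.49 CPM in wild-type embryos (log2 fold change 0.96 for affected against wild-type, edgeR adjusted p = 0.00498). *spo11*, the enzyme that breaks DNA in meiosis, had at most 16 counts in an affected library and at most 2 in a wild-type library. It was called higher (2.81, edgeR adjusted p = 0.00454). The ovarian gene *foxl2* (ENSDARG00000068417), with at most 29 and 11 counts in these groups, was also higher (2.16, edgeR adjusted p = 0.0154). The other *foxl2* identifier (ENSDARG00000042180) had 0 counts in every library. *sox9* (ENSDARG00000003293) was lower (-0.79, edgeR adjusted p = 0.00859). The other *sox9* identifier (ENSDARG00000043923) averaged 1.04 CPM in affected and 1.44 CPM in wild-type embryos and was not called. Of the 12, edgeR called *sycp2*, a gene of the synaptonemal complex, higher in unaffected than in wild-type embryos (2.26, edgeR adjusted p = 0.0372) and no other, and 7 had an unadjusted p under 0.05. Between affected and unaffected embryos 0 of the 12 were called, and 2 had an unadjusted p under 0.05.

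Markers of the stage and of extraembryonic layers were counted likewise, since whole embryos were sampled. Segmentation onset genes gave 4 higher and 11 lower calls among 22 between affected and wild-type embryos (median -0.40) and 0 between unaffected and wild-type embryos with edgeR (5 at an unadjusted p under 0.05, median -0.18), and summed to 1648 to 1990 CPM in affected, 1829 to 1983 CPM in unaffected and 1821 to 2204 CPM in wild-type libraries. Between affected and unaffected embryos 0 were called with edgeR (7 at an unadjusted p under 0.05). *mespab* (1.14, edgeR adjusted p = 0.0229) and *mespaa* (0.82, edgeR adjusted p = 0.00624) led the rises in affected against wild-type embryos, and *pax2* was lower (-2.57, edgeR adjusted p = 0.0358). Of 14 genes of the enveloping layer, the outer epithelium, 2 were called higher (*cldnf* by 0.75 and *cldne* by 0.41) and 6 lower (led by *krt17* at -1.68 and *cyt1* at -1.64) between affected and wild-type embryos, and their sum was 10782 to 12208 CPM in affected, 14635 to 16889 CPM in unaffected and 12849 to 16575 CPM in wild-type libraries. *krt5* was the only one called between unaffected and wild-type embryos, where it was higher (0.75, edgeR adjusted p = 0.000878), and 4 were lower in affected than in unaffected embryos, led by *cyt1* (-1.25, edgeR adjusted p = 0.0368) and *cyt1l* (-1.18, edgeR adjusted p = 0.0386). Of 9 tested genes of the yolk syncytial layer, 7 were called higher and 0 lower between affected and wild-type embryos, led by *hnf4a* (1.48, edgeR adjusted p = 0.000320) and *mxtx1* (1.01, edgeR adjusted p = 0.000843), both also higher in affected than in unaffected embryos (0.96 and 0.91, edgeR adjusted p of 0.0214 and 0.0146), where 5 were called. Between unaffected and wild-type embryos 0 were called with edgeR (3 at an unadjusted p under 0.05). The sum was 2966 to 3627 CPM in affected, 2083 to 2238 CPM in unaffected and 1873 to 2348 CPM in wild-type libraries. Among these related genes, calls were lost under some alternatives for *nanos1* (adjusted p up to 0.0828), *macf1a* (0.113), *snai1b* (0.0816), *sycp2* (0.143), *mespab* (0.0990), *pax2* (0.121), *foxl2* (0.0613) and *elmo1* in unaffected embryos (0.0783), and for each of *zfp36l1* (ENSDARG00000021443), *snai1a*, *zeb1*, *cyt1*, *cyt1l*, *hnf4a* and *mxtx1* between affected and unaffected embryos (adjusted p up to between 0.0714 and 0.174). The part of developmental stage or of these tissues in the levels of the germ plasm genes was not tested.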

How the data were processed

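RNA from pools of embryos was sequenced as paired-end, strand-specific, ribosomal RNA-depleted libraries (the labels' molecule field says polyA RNA). The authors mapped reads with STAR to GRCz11 and counted uniquely mapped pairs over Ensembl exons, and the deposited values are raw counts per gene, not normalized and not pooled. The processing notes name STAR 2.4.0i. Use of strand in counting is not stated, so antisense and overlapping genes are uncertain, and pairs shared by near-identical paralogues were dropped.

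Genes were filtered by filterByExpr, scaled by TMM and fitted in 1 model of 3 groups with glmQLFit and glmQLFTest (edgeR 4.0.16, R 4.3.3), with Benjamini-Hochberg adjustment over 16962 genes and a threshold of 0.05. The code was tested on simulated data. Replicate libraries differed beyond sampling noise (chi-square per degree of freedom 9.06 to 67.7). A count of 3 corresponded to at most 0.108 CPM. Symbols came from a table of Ensembl names (28986 of 32055 identifiers), with a final a or b dropped where no exact match was found. Several identifiers then shared a symbol for *zfp36l1*, *celf3*, *kif5b*, *sox9*, *foxl2*, *grip2* and *pax2*. Which of them is the listed gene was not resolved.

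The genes and lists were chosen with earlier results of these data known. All 10 germ plasm genes are named. From each other list, up to 2 called genes with the largest change each way are named per comparison. *ccnb1*, *cdc20*, *meiob*, the lower *zfp36l1* identifier and the *kif5b* identifier that was not called were named after their values had been seen. The same holds for the other *celf3* and *sox9* identifiers and for the call of *kif5b* between affected and wild-type embryos. A further gene under the rule is left unreported. The pairing of replicate numbers was judged from the correlation of deviations from the group means in replicates 1, 2 and 3. Unaffected with wild-type libraries gave 0.123, 0.141 and 0.268. Affected with unaffected libraries gave 0.169, 0.236 and 0.462. All of these exceeded 0.1 and were taken as a pairing. Affected with wild-type libraries gave 0.0805, 0.113 and 0.260, which was not. Some libraries with different numbers also exceeded 0.1. Unaffected replicate 1 with wild-type replicate 2 gave 0.134, and affected replicate 1 with unaffected replicate 2 gave 0.116. The same numbers were thus taken as a pairing in some comparisons and not in another, so the pairing is uncertain. Alternatives were DESeq2 1.42.0, other scalings and filters, fits of 6 libraries, the block and leaving out libraries. No sequences are printed, because no sequence tables or genome of the files' build were used here.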

Additional observations from a re-analysis of the deposited data

How the results depend on the processing

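The 10 germ plasm genes were refitted under 17 alternatives. Of the 30 gene results, 12 kept their direction and their side of the threshold under all of them, and the rises of *ddx4* and *buc* and the fall of *tdrd7a* in affected against wild-type embryos, and the fall of *tdrd7a* in unaffected embryos, were among these. Leaving out single libraries gave 4 to 7 called genes between affected and wild-type, 1 to 2 between unaffected and wild-type and 0 to 1 between affected and unaffected embryos. The fits with 4 were those without affected replicate 1, affected replicate 3 or wild-type replicate 1. Over all genes those fits called 3496 of 17395, 4148 of 17325 and 3985 of 17263, against 5144 of 16962 with all libraries. DESeq2 called 2 genes between unaffected and wild-type embryos and 1 between affected and unaffected embryos. Leaving replicate 3 out of every group gave 3 calls between unaffected and wild-type embryos, and 2174 of 16945 over all genes. With the replicate block, 4 genes were called between unaffected and wild-type and 3 between affected and unaffected embryos. Between affected and wild-type embryos, where the numbers were not taken as a pairing, the block gave 9 calls, adding *ca15b* (adjusted p = 0.0171) and *celf1* (0.0137), and the fit of only those 6 libraries gave 6, without *nanos3* (0.0573). In that block fit 19.2% of all genes were called higher and 20.1% lower, against 15.4% and 15.0% without the block. The direction turned only for small differences when single libraries were left out, for which the log2 values ran from -0.28 to 0.0716 for *ca15b* and from -0.21 to 0.0762 for *celf1* in unaffected against wild-type embryos, and from -0.49 to 0.29 for *nanos3*, from -0.42 to 0.10 for *dnd1* and from -0.17 to 0.32 for *tdrd7a* in affected against unaffected embryos. The causes were not tested.

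Over all genes, 1628 were called between unaffected and wild-type embryos, against 2216 with DESeq2, 2758 with the block, 965 in the fit of 6 libraries and 758 to 1797 without single libraries. Between affected and unaffected embryos 507 were called, against 1206 with DESeq2, 1399 with the block and 42 to 697 without single libraries. Of affected against wild-type embryos the calls numbered 5144, against 6667 with the block. They numbered 4770 in the fit of 6 libraries and 3402 to 5459 without single libraries. Among the 10 germ plasm genes, the smallest counts in a library were 29 for *nanos3* and 37 for *dnd1*, and some related genes had fewer.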
